A study of Mus musculus with 6 samples.

Results

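The transcriptional regulators of brown and beige fat identity examined here were 10 genes, namely Prdm16, its relative Prdm3, the EBF factors Ebf1, Ebf2 and Ebf3, and Zfp516, Nfia, Tle3, Ctbp2 and Hlx. Every probe set annotated to one of these symbols was taken, which gave 12 probe sets of 34760 on the array, a probe set being a group of probes summarized into 1 value. Prdm3 is listed under its current symbol Mecom, matched through the synonyms of a RefSeq gene table. RNA came from inguinal white adipose tissue, a subcutaneous depot, of 3 male mice lacking the transcription factor ATF7 (ATF7 KO) and 3 wild-type (WT) male littermates, with 1 array per mouse. Both groups were of the C57BL/6 strain, were born to Atf7 heterozygotes, were 5 weeks old and carried no stated treatment. The labels name the mutant only as a KO, and neither the allele nor any restriction to a cell type is stated there. In bulk tissue, fewer cells of a type and less RNA per cell cannot be told apart.

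Beige adipocytes are heat-producing cells that appear within white depots. PRDM16, a zinc finger coregulator, holds their identity by joining DNA-bound factors at brown fat genes and by recruiting corepressors to white fat genes. EBF factors bind DNA beside the adipogenic receptor PPARG, and EBF2 marks brown and beige precursors. The comparison asked, following the series title, how Atf7 bears on adipocyte differentiation and thermogenic genes, and for these regulators whether their own transcripts differed between the genotypes.

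Ebf2, Ebf3 and 1 of the Mecom probe sets lay higher in every KO array than in every WT array, by 1.57-fold, 1.37-fold and 1.32-fold, and so did Ctbp2, by 1.21-fold. Tle3 lay lower in every KO array, with WT 1.13-fold above KO. For Prdm16, Ebf1, Zfp516, Nfia, Hlx and the other Mecom probe set the groups overlapped. None of the 12 probe sets passed limma's test at an adjusted p under 0.05 over all probe sets, and their adjusted p-values lay between 0.676 and 0.945. With the unadjusted p below 0.05 as the threshold, 3 of the 12 were higher in KO (Ebf2, Ebf3 and Mecom probe set 10497590) and 0 were lower. Over the array, 4.05% of probe sets were higher in KO at that threshold and 2.84% were lower, while 0% were higher and 0.00575% lower at the adjusted one. The median log2 difference, KO minus WT, was 0.21 over the 12 probe sets and 0.00 over all probe sets, and 10 of the 12 differences were positive. The groups did not overlap in 5 of the 12, with KO above in 4 (7.10% of all probe sets) and KO below in 1 (5.97% of all).

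**Figure D1:**
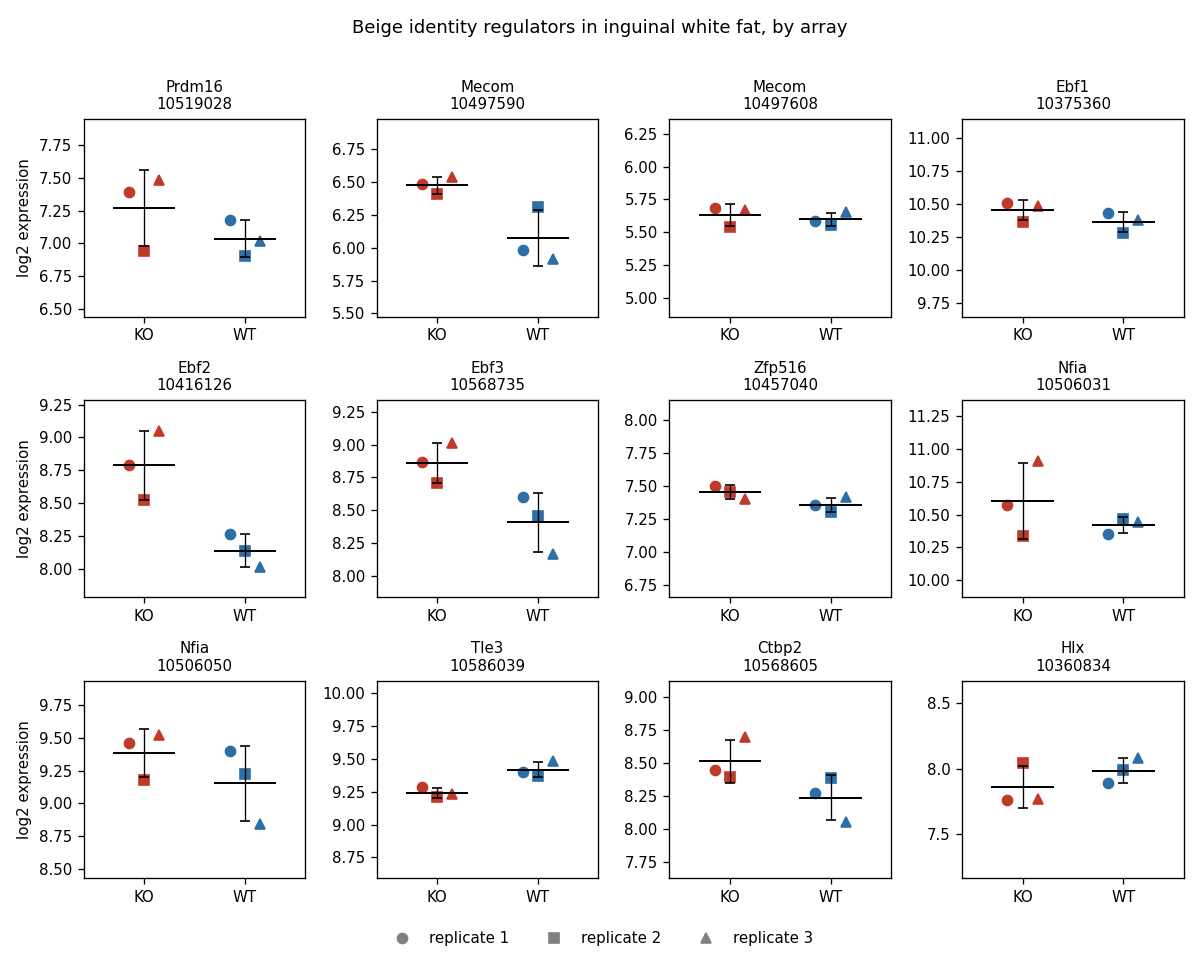
Log2 expression of the 12 probe sets of the 10 regulators (y axis, log2 units, each panel spanning the same range) in KO and WT arrays (x axis). Points are arrays, symbols mark replicate numbers, the long line is the group mean and the bars are 1 SD (n = 3 each). Ebf2 and Ebf3 show a gap between the groups, whereas Prdm16 and Nfia overlap, with KO replicate 2 near the WT arrays.

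The values of Atf7, the targeted gene, matched the labels in probe set 10433032, with 6.41 ± 0.17 in KO arrays and 9.07 ± 0.12 in WT arrays (SD, n = 3 each, limma's adjusted p 0.00658). The other Atf7 probe set, 10433034, averaged 9.25 ± 0.16 in KO arrays and 9.42 ± 0.09 in WT arrays and did not pass (adjusted p 0.730), and which part of the gene the KO lacks was not stated. Mature adipocyte markers were bright in every array. Plin1, the lipid droplet coat protein, averaged 11.94 ± 0.16 in KO arrays and 11.78 ± 0.10 in WT arrays (SD, n = 3 each). Of the 8 measured markers in that list, 6 had a positive difference and 2 a negative one, with a median of 0.12. Of all genes, 53.0% had a positive difference. KO replicate 3 stood apart, with correlations of 0.969 to 0.981 with the other arrays across probe sets, against 0.984 to 0.990 among the others. It also lacked most lymphocyte signal. All 14 measured B cell markers and all 13 measured T cell markers had a negative difference, and the level of both lists together (mean of log2 values, each gene centred on its mean over the 6 arrays) was -0.11, 0.66 and -2.59 in KO replicates 1, 2 and 3, against 0.69, 0.54 and 0.80 in WT replicates 1, 2 and 3. Skeletal muscle markers were high in KO replicate 1 (1.38), WT replicate 2 (2.11) and WT replicate 3 (0.42) and between -1.36 and -1.23 in the other arrays. The level of the mature adipocyte markers was 0.06, -0.11 and 0.22 in KO replicates 1, 2 and 3. It was -0.08, 0.07 and -0.16 in WT replicates 1, 2 and 3. Beside these levels, KO replicate 3 was the highest KO array in 7 of the 12 probe sets and KO replicate 2, with a lymphocyte level inside the WT range, was the lowest KO array in 10. Values fitted with the lymphocyte level as a covariate are given beside the regulators, and the part of these cells in the results was otherwise not tested.

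Among the EBF factors, Ebf2 had the largest difference of all 12 probe sets. Its log2 values were 8.79, 8.52 and 9.05 in the KO arrays, against 8.26, 8.14 and 8.02 in the WT arrays. The lowest KO array was thus above the highest WT array. The difference was 0.65 (SE 0.15, 95% interval 0.28 to 1.02), with an unadjusted p of 0.00437 and an adjusted p of 0.676 from limma. It was between 0.52 and 0.78 with each array left out in turn, lowest without KO replicate 3, and 0.45 with the lymphocyte level as a covariate.

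Ebf3, another DNA-binding member of the family, also showed a gap between the groups. It was at 8.87, 8.71 and 9.01 in the KO arrays, against 8.60, 8.46 and 8.16 in the WT arrays. WT replicate 3 was the lowest array and WT replicate 1 lay just under KO replicate 2. The difference was 0.45 (SE 0.15, 95% interval 0.11 to 0.80), with an unadjusted p of 0.0182 and an adjusted p of 0.696 from limma. Left out in turn, KO replicate 3 and WT replicate 3 brought the unadjusted p to 0.0537 and 0.0524 (differences of 0.38 and 0.33), and the lymphocyte covariate brought it to 0.0884.

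Ebf1, which drives both adipogenesis and B lymphocyte formation, differed little. Its values were 10.51, 10.37 and 10.48 in the KO arrays, against 10.43, 10.28 and 10.38 in the WT arrays. The difference was 0.09 (95% interval -0.14 to 0.32), so a KO increase of up to 1.25-fold lies inside the interval. It was 0.05 without WT replicate 2 and 0.06 with the lymphocyte level as a covariate. KO replicate 3 was the second highest of the 6 arrays for Ebf1 and the lowest for B cell markers. Cd79a, part of the B cell receptor, was at 10.10, 10.65 and 5.61 in KO replicates 1, 2 and 3. It was at 10.91, 10.43 and 10.83 in the WT arrays. Pax5, the B lineage factor that works with EBF1 in those cells, was at 8.47, 9.25 and 6.00 in the KO arrays, against 9.35, 9.10 and 9.46 in the WT arrays. The part of B cells in the Ebf1 values was not tested.

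The EBF genes were also set against each other within each array, a contrast chosen after their values were seen. Ebf2 minus Ebf1 was -1.66 ± 0.21 in KO and -2.22 ± 0.12 in WT (SD, n = 3 each), a difference of 0.56 between the groups. Ebf3 minus Ebf1 was -1.59 ± 0.10 in KO and -1.95 ± 0.22 in WT, a difference of 0.36. Neither contrast overlapped between the groups, and the two-sided exact permutation p was 0.1, the smallest that 3 against 3 can give (0.133 after Benjamini-Hochberg adjustment over the 4 contrasts computed). Ebf2 minus Ebf3 was -0.07 ± 0.11 in KO and -0.27 ± 0.11 in WT, where the groups overlapped (exact permutation p 0.2). These probe sets have different brightness, so only the difference of each contrast between genotypes was read. The fourth family member measured, Ebf4, averaged 5.74 ± 0.08 in KO arrays and 5.78 ± 0.11 in WT arrays (SD, n = 3 each).

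**Figure D2:**
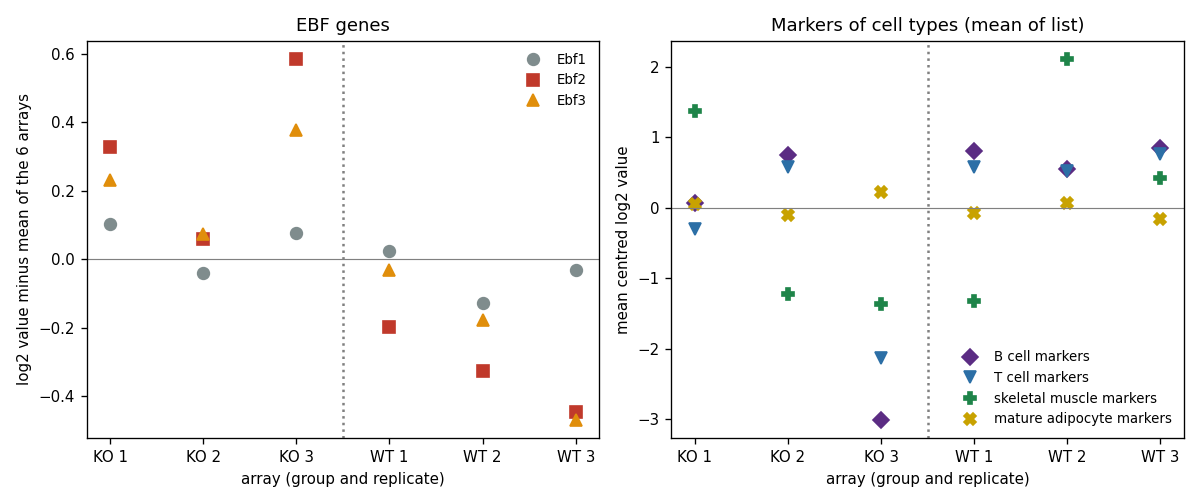
Left, log2 values of Ebf1, Ebf2 and Ebf3 minus each gene's mean over the 6 arrays. Right, mean centred log2 values of B cell, T cell, skeletal muscle and mature adipocyte marker lists in the same arrays. KO arrays are left of the dotted line and WT arrays right of it. Ebf2 and Ebf3 are above 0 in all KO arrays and below 0 in all WT arrays, and the B cell level of KO replicate 3 is -3.01.

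The start region of Ebf3 is shown because it was the only EBF gene with a group gap that had an entry in the RefSeq promoter table (250 bases before to 50 after the start, build GRCm38.p6), in which 8 of the 10 genes matched, all but Ebf2 and Zfp516. It lies at chr7:137314396-137314695 on the minus strand and is given from 5′ to 3′. Capitals mark the EBF core letters CCCNNGGG, where N is any base, and, in either orientation, the letters TGACG, the core of the cyclic AMP response element (CRE) that ATF and CREB factors bind.
Ebf3: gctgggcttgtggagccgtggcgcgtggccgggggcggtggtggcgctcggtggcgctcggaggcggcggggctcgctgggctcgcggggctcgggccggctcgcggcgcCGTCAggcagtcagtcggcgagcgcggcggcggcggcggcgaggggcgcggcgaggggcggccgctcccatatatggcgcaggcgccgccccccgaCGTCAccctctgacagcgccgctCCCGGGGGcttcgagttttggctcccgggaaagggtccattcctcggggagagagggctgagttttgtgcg
The window held 1 match to the EBF core, starting at base 230, and 2 to the CRE core, at bases 111 and 207. Of all 32851 windows in the table, 13.7% held the EBF core and 20.8% the CRE core on either strand, so matches of this kind are common. The Ebf3 window was 77.0% G and C, against a median of 52.7% over all windows, and these shares are not matched for base content. Among the 11 windows of the 8 matched regulators, 3 held the CRE core, those of Ebf1, Ebf3 and Tle3, and 0 held the full palindromic CRE (TGACGTCA), which 1.79% of all windows held.

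Prdm16 itself was higher in KO on average with overlapping groups. It had log2 values of 7.39, 6.94 and 7.49 in the KO arrays, against 7.18, 6.90 and 7.02 in the WT arrays. KO replicates 1 and 3 were above all WT arrays, while KO replicate 2 lay within the WT range. The 95% interval of the difference ran from -0.16 to 0.63 around 0.24, with an adjusted p of 0.731 from limma, and therefore holds both no change and a 1.55-fold increase. Leaving out KO replicate 2 gave 0.40 (unadjusted p 0.0201, limma) and leaving out KO replicate 3 gave 0.13, and the difference was 0.06 with the lymphocyte level as a covariate.

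Mecom encodes PRDM3, a zinc finger relative of PRDM16 that can act in its place in mouse brown fat. Its 2 probe sets gave different results. Probe set 10497590 was at 6.48, 6.41 and 6.54 in the KO arrays, against 5.98, 6.31 and 5.92 in the WT arrays. All KO arrays were above all WT arrays, with WT replicate 2 close beneath KO replicate 2. The difference was 0.40 (SE 0.13, 95% interval 0.10 to 0.71), with an unadjusted p of 0.0176 and an adjusted p of 0.696 from limma. Probe set 10497608 was at 5.68, 5.54 and 5.67 in the KO arrays, against 5.59, 5.56 and 5.65 in the WT arrays, with overlapping groups, a difference of 0.03 and a 95% interval of -0.19 to 0.26. Both probe sets were dimmer than the median probe set. The unadjusted p of 10497590 was 0.0608 without WT replicate 1, 0.0592 without WT replicate 3 and 0.0711 with the lymphocyte level as a covariate, where the difference was 0.34. That of 10497608 was -0.0063 with this covariate. The contrast of 10497590 minus 10497608 within arrays was 0.84 ± 0.04 in KO and 0.47 ± 0.26 in WT (SD, n = 3 each), without overlap (exact permutation p 0.1, adjusted 0.133).

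The locus is known for a long and a short transcript that begin at separate starts, of which the long one adds the PR domain. The promoter table lists a pair of Mecom windows whose starts are 496555 bases apart, both on the minus strand of GRCm38.p6. They are shown because the probe sets disagree and the annotation lists different transcripts for them. The annotation used here does not say which start either probe set reports on. Capitals mark the EBF core letters CCCNNGGG.
Mecom, upstream start, chr3:30509710-30510009: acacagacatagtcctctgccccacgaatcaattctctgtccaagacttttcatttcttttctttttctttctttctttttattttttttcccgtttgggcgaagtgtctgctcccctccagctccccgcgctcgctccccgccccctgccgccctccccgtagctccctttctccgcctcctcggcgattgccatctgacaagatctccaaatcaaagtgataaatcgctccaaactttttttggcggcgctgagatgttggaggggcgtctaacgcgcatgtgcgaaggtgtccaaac
Mecom, downstream start, chr3:30013155-30013454: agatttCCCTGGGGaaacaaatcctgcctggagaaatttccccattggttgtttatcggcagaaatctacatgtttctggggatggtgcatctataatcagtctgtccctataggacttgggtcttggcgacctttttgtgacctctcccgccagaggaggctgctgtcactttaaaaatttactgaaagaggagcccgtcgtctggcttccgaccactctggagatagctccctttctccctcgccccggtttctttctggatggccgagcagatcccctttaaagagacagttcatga
The downstream window held the EBF core once, starting at base 7, and with that of Ebf3 it was 1 of 2 among the 11 regulator windows that did. The upstream window held none, and neither Mecom window held the CRE core.

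Nfia, a nuclear factor that opens brown fat enhancers together with PPARG, was covered by 2 probe sets whose differences were alike in size and direction. Probe set 10506031 was at 10.57, 10.34 and 10.91 in the KO arrays, against 10.35, 10.46 and 10.44 in the WT arrays. Probe set 10506050 was at 9.46, 9.18 and 9.52 in the KO arrays, against 9.40, 9.22 and 8.84 in the WT arrays. In both, KO replicates 1 and 3 were the highest arrays and KO replicate 2 was among or under the WT arrays. The differences were 0.19 (95% interval -0.18 to 0.55) and 0.23 (-0.18 to 0.64), with adjusted p-values of 0.774 and 0.745 from limma. For 10506031 the difference ran from 0.03 (KO replicate 3 left out) to 0.32 (KO replicate 2 left out) and was -0.04 with the lymphocyte level as a covariate. For 10506050 it was 0.08 without WT replicate 3, 0.35 without WT replicate 1 and 0.11 with that covariate.

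Zfp516, a cold-induced zinc finger protein that binds PRDM16 and activates Ucp1, was at 7.51, 7.46 and 7.40 in the KO arrays, against 7.36, 7.31 and 7.41 in the WT arrays. The groups overlapped, since KO replicate 3 lay below WT replicate 3. The difference of 0.10 (95% interval -0.12 to 0.31) had an adjusted p of 0.797 from limma, and an increase above 1.24-fold lies outside the interval. With the lymphocyte level as a covariate it was 0.13. Hlx, a homeobox factor that promotes browning of white fat, was at 7.76, 8.04 and 7.77 in the KO arrays, against 7.89, 7.99 and 8.08 in the WT arrays. KO replicates 1 and 3 were the lowest arrays and KO replicate 2 was the second highest. The difference was -0.13 (95% interval -0.41 to 0.15, adjusted p 0.791 from limma), and it was -0.22 without KO replicate 2, -0.08 without any 1 of KO replicate 1, KO replicate 3 or WT replicate 3, and -0.04 with the lymphocyte level as a covariate.

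The corepressors differed in opposite directions by small amounts. Ctbp2, which PRDM16 recruits to silence white fat genes, was at 8.44, 8.39 and 8.70 in the KO arrays, against 8.27, 8.39 and 8.05 in the WT arrays. The groups did not overlap, but KO replicate 2 and WT replicate 2 were nearly level. The difference was 0.28 (95% interval -0.04 to 0.60), with an unadjusted p of 0.0799 and an adjusted p of 0.696 from limma. It was 0.18 with KO replicate 3 left out, 0.19 with WT replicate 3 left out and 0.14 with the lymphocyte level as a covariate. Its paralog Ctbp1, which PRDM16 also binds, differed by -0.05 (95% interval -0.26 to 0.15).

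Tle3, a Groucho-family corepressor that favours white fat genes and competes with PRDM16 for PPARG, was at 9.28, 9.21 and 9.23 in the KO arrays, against 9.40, 9.37 and 9.48 in the WT arrays. Both groups were tight and did not overlap. The difference was -0.18 (SE 0.09, 95% interval -0.39 to 0.04), with an unadjusted p of 0.0910 and an adjusted p of 0.696 from limma. It ran from -0.20 to -0.14 with each array left out in turn and was -0.17 with the lymphocyte level as a covariate. Of the other TLE genes, Tle4 averaged 7.64 ± 0.37 in KO arrays and 8.05 ± 0.07 in WT arrays (SD, n = 3 each). Tle1, Tle2 and Tle5, which is also known as Aes, differed by 0.10, 0.05 and 0.11. Tle6, named after its values were seen, differed by 0.18. The groups did not overlap for Tle4, with KO below, or for Tle5 and Tle6, with KO above. Of all genes, 7.96% had KO above without overlap and 5.97% KO below.

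**Figure D3:**
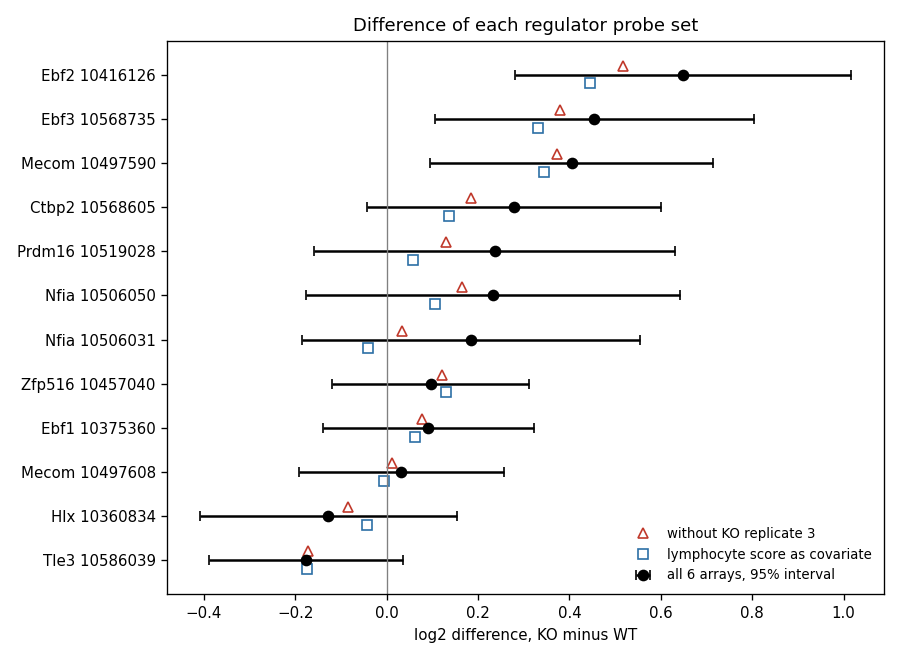
Log2 difference, KO minus WT, of the 12 regulator probe sets (x axis), with limma's 95% interval over all 6 arrays in black. Triangles give the value without KO replicate 3 and squares the value with the lymphocyte level as a covariate. The intervals of Ebf2, Ebf3 and Mecom probe set 10497590 lie above 0. The squares lie nearer to 0 than the points for every probe set but that of Zfp516, though hardly so for Tle3. Those of Nfia probe set 10506031 and Mecom probe set 10497608 lie just below 0.

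The remaining paralogs of the regulators were examined as a list of 23 genes of the PRDM, EBF, NFI, TLE and CtBP families, of which 21 were measured, each by its brightest probe set. None passed the adjusted threshold. At an unadjusted p under 0.05 there was 1 higher and 0 lower, against 4.06% and 1.79% of all 19937 genes, and the median difference was 0.02, against 0.01 for all genes. The 1 gene was Nfix, a nuclear factor I gene, at 11.04, 10.75 and 11.06 in the KO arrays, against 10.65, 10.68 and 10.64 in the WT arrays, a difference of 0.29 (95% interval 0.02 to 0.56). Nfib and Nfic differed by 0.18 and 0.16. The count of paralogs at that threshold was 0 without KO replicate 1, KO replicate 3, WT replicate 1 or WT replicate 3, and 3 without KO replicate 2. Over all probe sets, leaving out KO replicate 2 also raised the counts, from 1409 higher and 987 lower to 2467 and 2736.

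Other proteins that work with or against PRDM16 and the EBFs were counted in a list of 20, of which 19 were measured. At an unadjusted p under 0.05, 3 were higher in KO (4.06% of all genes) and 0 lower (1.79% of all), and the median difference was 0.12, against 0.01 for all genes. Ppargc1a, the coactivator that PRDM16 binds, was one of the 3, with 8.28 ± 0.48 in KO arrays and 7.42 ± 0.21 in WT arrays (SD, n = 3 each). The other members of that count, named here after their values were seen, were its relative Ppargc1b and the fatty acid receptor gene Ppara, which differed by 0.67 and 1.34. The rest of those named here did not reach that threshold. Cebpb, the partner with which PRDM16 starts the brown programme, differed by 0.35 (95% interval -0.15 to 0.86), Pparg by 0.40 (-0.11 to 0.90) and Gtf2ird1, which joins PRDM16 in repressing fibrosis genes, by 0.38 (-0.11 to 0.88). Ehmt1, the histone methyltransferase of the PRDM16 complex, differed by -0.01 (-0.31 to 0.29), the demethylase gene Kdm1a by -0.10, the Mediator subunit Med1 by -0.11 and Zbtb7b, a zinc finger activator of brown genes, by 0.18. Zfp423, which holds white identity by blocking EBF2, differed by 0.09 (-0.19 to 0.38).

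Brown and beige genes taken as downstream of PRDM16 and the EBFs, general beige markers among them, were counted in a list of 24. Whether these factors act on each of them was not tested. Of these, 21 were measured, 18 had a positive difference and the median was 0.79. The unadjusted p was under 0.05 for 13 of the 21, all of them higher in KO, against 4.06% of all genes higher and 1.79% lower. The list shares Ppargc1a and Ppara with the partners, and it was chosen with results of these data known. Ucp1, which uncouples respiration, was at 9.36, 8.76 and 9.65 in the KO arrays, against 7.04, 5.97 and 6.05 in the WT arrays. Cidea, a lipid droplet protein of brown fat, differed by 1.59 (95% interval 1.01 to 2.16) and the respiratory subunit gene Cox7a1 by 1.51 (1.09 to 1.93). Cox8b, another respiratory subunit of brown fat and muscle, differed by 0.80 (95% interval 0.38 to 1.21). Dio2, the enzyme that activates thyroid hormone, differed by 0.25 (-0.02 to 0.52) and Elovl3, an elongase induced in brown fat, by -0.06 (-0.28 to 0.15). Both were dim, with means of 5.32 and 4.92 over the 6 arrays, under the median of every array (6.41 to 6.49). Small differences at such levels do not show that a gene is unchanged. Tbx1 and Tmem26, used as beige markers, differed by 0.11 and -0.13. None passed the adjusted threshold, and 13 or 14 genes were under the unadjusted one with each array left out in turn.

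White-selective genes went both ways, with differences between -0.63 and 0.60. Which of them PRDM16, CtBP or TLE3 act on was not tested. Of 15 listed, 14 were measured, 9 were negative, 1 was lower at an unadjusted p under 0.05 (1.79% of all genes) and 0 higher (4.06% of all), with a median of -0.09. The 1 gene, named after its values were seen, was Igfbp3, which encodes an IGF-binding protein, at -0.63. Agt, angiotensinogen, differed by -0.38 (95% interval -0.91 to 0.14), Psat1, a serine synthesis enzyme, by -0.10 and the adipokine Retn by -0.09. Others of the list were positive, and of these, chosen after their values were seen, Nnat differed by 0.60, Dpt by 0.46, Hoxc9 by 0.29 and Hoxc8 by 0.24. The groups did not overlap in 1 gene with KO above, Hoxc9 (7.96% of all genes), and in 2 with KO below (5.97% of all). Those 2 were Igfbp3 and, named after its values were seen, Trim14 at -0.29. The count at an unadjusted p under 0.05 was 4 with KO replicate 2 left out, and 0 with KO replicate 3 or WT replicate 1 left out. Without KO replicate 2 the probe sets under that p over the whole array rose too, from 1409 higher and 987 lower to 2467 and 2736. Zic1 and Lhx8, factors of the classical brown depot, differed by 0.0030 (-0.25 to 0.25) and -0.08 (-0.48 to 0.31). Their means over the 6 arrays, 4.99 and 6.40, were under the median of every array, so these differences do not show that the genes are unchanged. The third gene of that list, Epsti1, named after its values were seen, differed by -1.04 with overlapping groups (unadjusted p 0.117, limma).

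**Figure D4:**
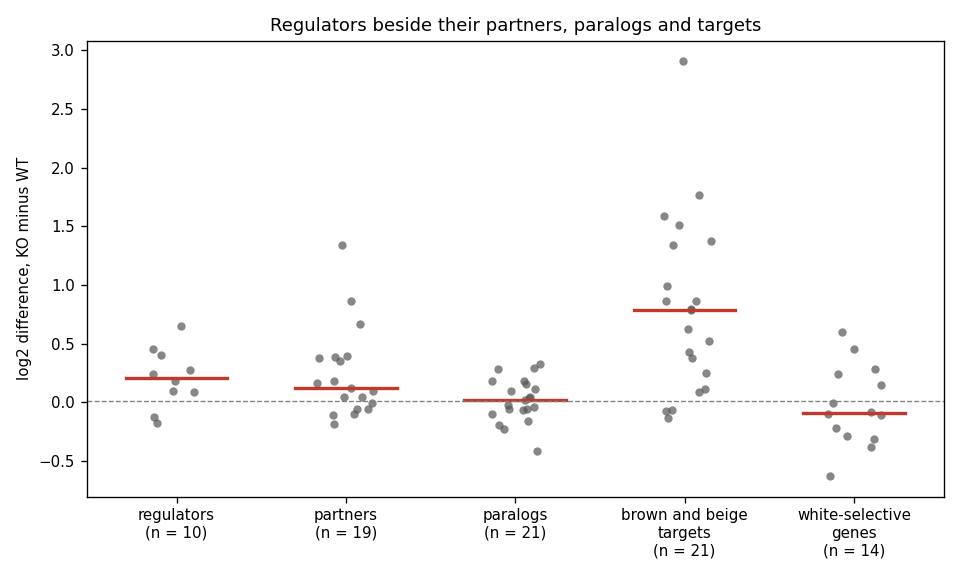
Log2 difference, KO minus WT, of each measured gene (points, brightest probe set) in 5 lists. Red lines are list medians, the dashed line is the median of all genes (0.01), and the horizontal scatter has no meaning. The brown and beige genes (labelled targets) have a median of 0.79 and reach 2.91 (Ucp1), whereas the regulators have a median of 0.21 and reach 0.65 (Ebf2).

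The genes whose values over the 6 arrays ran most like those of Ebf2, among 9737 genes brighter than the median gene, were Acsm3, Kcnk3 and Abhd16a, with Pearson correlations of 0.998, 0.998 and 0.997. Acsm3 is a medium-chain acyl-CoA synthetase and was at 9.39, 8.83 and 9.95 in the KO arrays, against 8.22, 8.06 and 7.65 in the WT arrays. Kcnk3, a potassium channel, belongs to the list of brown and beige genes above. It was at 8.94, 8.63 and 9.24 in the KO arrays, against 8.23, 8.09 and 7.89 in the WT arrays. Those most like Prdm16 were other genes, namely Ttc7b, the laminin gene Lama4 and the exchange factor gene Arhgef10 (0.998, 0.997 and 0.991). Lama4 shared the low KO replicate 2, at 10.32, 9.61 and 10.39 in the KO arrays, against 9.98, 9.54 and 9.73 in the WT arrays. Those most like Ebf1 were Mtmr6, Zeb2 and Adamts5 (0.994, 0.988 and 0.983). These correlations rest on 6 arrays that share the genotype difference and the tissue make-up, and with so many genes searched high values arise easily.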

How the data were processed

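The values deposited by the authors are on a log2 scale, 1 for each probe set on each array. RMA, affy and limma are named for them, per the submitters' processing notes, without versions. RMA includes quantile normalization between arrays, which hides any shift common to most genes. No genome build is stated for the array annotation. Gene symbols came from the platform annotation, where 21640 had 1 symbol, 1321 several and 11799 no listed gene, and Entrez identifiers were matched to RefSeq (GRCm38.p6) for 19855 of 19937 genes. All 34760 probe sets were fitted with limma 3.58.1 in R 4.3.3 (lmFit, eBayes, KO against WT, two-sided), with Benjamini-Hochberg adjustment over all of them, a threshold of 0.05 and no filter. Intervals are limma's 95% ones. Genes of lists were represented by their probe set with the highest mean. Mice are the replicates, per the series' design text, and 3 arrays per group limit the precision.

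Replicate numbers are not stated to pair mice, and the reported fit had no block. Deviations from group means correlated at 0.001, 0.033 and 0.044 for the same number. For different numbers they correlated at -0.060 to 0.026. With so few arrays these values cannot decide whether the numbers pair mice. The regulators and all lists were chosen with earlier results of these data known. Genes named in the text were all regulator probe sets, Atf7, a list fixed by name, and for Prdm16, Ebf1 and Ebf2 the 3 genes with the highest Pearson correlation. One of the genes fixed by name is not reported here. Plin1, a listed adipocyte marker, and the genes marked so in the text were named outside this rule, after their values were seen. The EBF and Mecom contrasts within arrays were tested by exact permutation (scipy 1.17.1). The fit was tested on simulated data in which few probe sets were changed. At the adjusted threshold it called 2.09% of log2 changes of 0.5, 43.3% of 1.0 and 90.0% of 2.0. Of unchanged probe sets, 0.017% were called. Whether these shares hold for the arrays themselves was not tested. In the reported fit, Ucp1 differed by 2.91 and did not pass (limma's adjusted p 0.227). Cidea and Cox7a1, at 1.59 and 1.51, did not pass either. Over all probe sets 2 passed, among them Atf7 probe set 10433032 at -2.66. The largest regulator difference was 0.65, and most changes of 0.5 and of 1.0 were missed in the simulated data. Alternatives were normalization, dim probe sets, gene-level fits, a replicate block, a lymphocyte covariate, eBayes settings, array weights, each array left out and, added after seeing the data, a muscle covariate.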

Additional observations from a re-analysis of the deposited data

How the results depend on the processing

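The 12 regulator probe sets were refitted under 16 alternatives, giving 188 values, since dim or second probe sets drop out of some. Of these, 29 moved by over 1.5 times, 186 kept their direction and 2 turned, both with the lymphocyte level as a covariate: Mecom probe set 10497608 at -0.0063 and Nfia probe set 10506031 at -0.0395. No value passed the adjusted threshold under any alternative (lowest adjusted p 0.272), and 0 regulators and 0 genes of the other lists were called in all of them. The 3 regulators at an unadjusted p under 0.05 became 1 with the lymphocyte covariate, and ranged from 1 (WT replicate 3) to 4 (KO replicate 2) with an array left out. Of all 34760 probe sets, 1409 were higher and 987 lower in KO at that p in the reported fit. These counts were 818 and 737 with the lymphocyte covariate and 844 and 647 without WT replicate 3. Without KO replicate 2 they were 2467 and 2736. The regulators under that p numbered 3 with the muscle covariate. Over all probe sets, 923 were higher and 765 lower at that p with this covariate. With the replicate block the counts over all probe sets were 1413 and 1073, and with array weights 1771 and 1480. KO lay above WT in 4 to 9 and below in 1 to 2 probe sets with an array left out, most without KO replicate 2. With fewer arrays in a group a gap arises more easily, and the share of all probe sets was not computed for these fits. Paralogs under that p numbered 0 with either covariate, 2 with array weights and 0 to 3 with an array left out. White-selective genes numbered 2 with the replicate block and with the lymphocyte covariate, 0 with array weights and with the muscle covariate, and 0 to 4 with an array left out. The replicate block left 3 regulators under that p, and of the counts given here it moved only that of the white-selective genes by over 1.5 times. Why these counts moved was not tested. Arrays shifted to a common median moved the median of all probe sets by 0.03.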

Other observations

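Adipose precursor and endothelial markers, cell types in which EBF factors and Mecom are also known to be expressed, were set beside the regulators. Of 12 precursor markers 11 were measured, 8 were positive, 0 were higher and 1 lower (Thy1) at an unadjusted p under 0.05, and the list's level ran from -0.16 to 0.22 in KO and from -0.18 to 0.13 in WT. Pdgfra, the receptor that marks these cells, averaged 9.14 ± 0.27 in KO arrays and 9.07 ± 0.06 in WT arrays (SD, n = 3 each). All 12 endothelial markers were measured, 11 were positive, 2 were higher (Tek and Erg) and 0 lower at that p, the median difference was 0.23, and the level ran from -0.08 to 0.19 in KO and from -0.18 to 0.01 in WT. Of all genes, 53.0% were positive, 4.06% higher and 1.79% lower at that p. Thy1, Tek and Erg were named after their values were seen. The part of these cell types in the values of Ebf2, Ebf3 and Mecom was not tested.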
